A study of Mus musculus with 8 samples.

Results

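The genes described here encode the proteins of the mitochondrial ribosome (MRP genes) and were taken from the table by symbol, as every row whose name begins with Mrpl or Mrps and a number. There were 77 of them among the 24054 genes of the table, 48 with Mrpl symbols and 29 with Mrps symbols, and no expression value was used to choose them. RNA-seq of soleus (SOL), a small hindlimb muscle rich in slow oxidative fibers, was performed on 4 MI4KO and 4 flox mice, all male C57BL/6 animals whose labels give a high-fat diet, with 1 library per mouse. MI4KO mice carry floxed Irf4 alleles and a Cre recombinase driven by Myl1, a gene of skeletal muscle fibers, so that the transcription factor gene Irf4 is deleted in muscle fibers and not in the vessels, fat, nerve and blood cells of the same tissue. Flox mice carry the floxed alleles and served as controls. Mice are numbered 1 to 4 within each group in the order of the animal numbers in their labels.

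The mitochondrial ribosome translates the few messenger RNAs made from mitochondrial DNA, which encode core subunits of the respiratory chain and of ATP synthase. Its RNA comes from the mitochondrial genome, whereas all of its proteins are encoded in the nucleus, made in the cytosol and imported. Many of them descend from proteins of the bacterial ribosome and others were added during the evolution of mitochondria, and an oxidative muscle such as the soleus depends on this machinery to maintain its respiratory complexes.

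Of the 77 members, 50 encode proteins of the large subunit, which forms the peptide bond, and 26 encode proteins of the small subunit, which reads the codons. The large subunit includes Mrps18a and Mrps30 despite their symbols. Mrps36 was kept because its symbol matches, although its product is a component of the 2-oxoglutarate dehydrogenase complex and not of the ribosome. A bacterial counterpart exists for 46 of the proteins and none for 30.

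Recovered reads on genes totalled 13417512 to 16384565 per mouse, and MRP genes took 0.411% to 0.463% of them. All 77 MRP genes passed the filter on low values, which asked for a deposited value of 1 or more in 4 or more mice and left 11865 genes. Irf4 itself was at 0.686, 1.46, 1.58 and 1.68 in flox mice 1 to 4 and at 0.725, 0.840, 0.266 and 1.03 in MI4KO mice 1 to 4, from 4 to 23 reads, so that flox mouse 1 lay among the MI4KO mice at this depth. Summed muscle fiber markers were between 91759 and 108815 in every mouse. Flox mouse 1 stood apart in the summed liver markers, at 163.4 against 3.41 to 22.1 in the other mice, and MI4KO mouse 3 in the summed neutrophil markers, at 4.25 against 0.146 to 0.375, so results are also given without these mice where they move. These sums hold 10 liver markers and 5 neutrophil markers, of which 1 was at 0 in every mouse. Summed endothelial markers, over 4 genes, were between 287.9 and 337.4 in flox and between 212.8 and 301.8 in MI4KO mice, and in such bulk tissue fewer cells of a type and less RNA per cell cannot be told apart. The part of these other cells in any result below was not tested.

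MRP transcripts were present at very unequal levels. Levels of different genes are compared here per length, as the deposited value (a read count scaled to the size of the library) divided by the length in kb of the longest annotated transcript. The median over the 77 genes was 28.4 per kb in flox and 29.0 per kb in MI4KO mice, and the flox levels ranged 37.9-fold, from 5.87 to 222.5 per kb. Complex I genes, whose products form the entry enzyme of the respiratory chain, had a median of 253 per kb over 36 genes, and the proteins of the cytosolic ribosome one of 233 per kb over 78 genes. Both medians lay above the level of every single MRP gene in flox mice per kb of the longest transcript. Per kb of the principal transcript, described below, Mrpl42 at 270.1 per kb exceeded the median of the cytosolic ribosome at 264.5 per kb.

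Mrpl14, a large-subunit protein that lies at the interface with the small subunit, had the highest level per kb of the longest transcript, at 222.5 ± 8.38 per kb in flox (SD, n = 4) and 210.6 ± 16.9 per kb in MI4KO mice. Mrps21 of the small subunit followed at 138.8 ± 9.63 per kb in flox, and Mrpl12, the stalk protein that contacts translation factors, at 136.9 ± 7.18 per kb. Mrpl14 was above Mrps21 in each flox mouse without overlap, whereas the flox values of Mrps21 and Mrpl12 overlapped. Mrpl54, a large-subunit protein without a bacterial counterpart, was at 113.9 ± 9.82 per kb and Mrpl18, one of the proteins of the central protuberance, at 95.7 ± 3.92 per kb, each without overlap with the gene above it in the order.

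At the other end, Mrps22 was at 5.87 ± 0.352 per kb in flox, Mrpl47 at 6.01 ± 0.315, Mrps25 at 6.77 ± 0.495, Mrps35 at 6.78 ± 0.608 and Mrps17 at 6.92 ± 0.304 per kb. Mrps22, Mrps25 and Mrps35 are small-subunit proteins without bacterial counterparts, Mrpl47 is a large-subunit protein of the polypeptide exit region and Mrps17 a small-subunit protein that binds ribosomal RNA. The flox values of neighbours among these lowest genes overlapped, and this held for 70 of the 76 neighbouring pairs in the whole order. The low levels per kb were not low read numbers, since these genes had 254 to 683 reads per mouse and a long annotated transcript.

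The chosen length mattered for some genes. With the principal transcript, the one the annotation marks as the main isoform, 15 genes had a transcript shorter by a factor above 1.5 and the order of the 77 genes kept a Spearman correlation of 0.87 with the first. Mrps22 then stood at 16.2 per kb instead of 5.87 and Mrps18a at 92.2 per kb instead of 36.7. Mrpl42 and Mrpl33, noticed after their values were seen, moved most among the high genes, from 54.9 to 270.1 per kb and from 22.6 to 129.7 per kb. Mrpl14, Mrps21 and Mrpl12 kept their values under both lengths, but with the principal transcript Mrpl42 stood above all 3.

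Genes of the large subunit had a median flox level of 31.1 per kb over 50 genes and those of the small subunit one of 19.2 per kb over 26 genes, with ranges of 6.01 to 222.5 and of 5.87 to 138.8 per kb. Genes with a bacterial counterpart had a median of 27.8 per kb and those without one of 32.1 per kb, an order that turned round with the principal transcript, at 36.6 and 32.7 per kb. The order of levels was almost the same in both groups of mice, with a Spearman correlation across the 77 genes of 0.999, a description over genes measured in the same libraries.

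**Figure D1:**
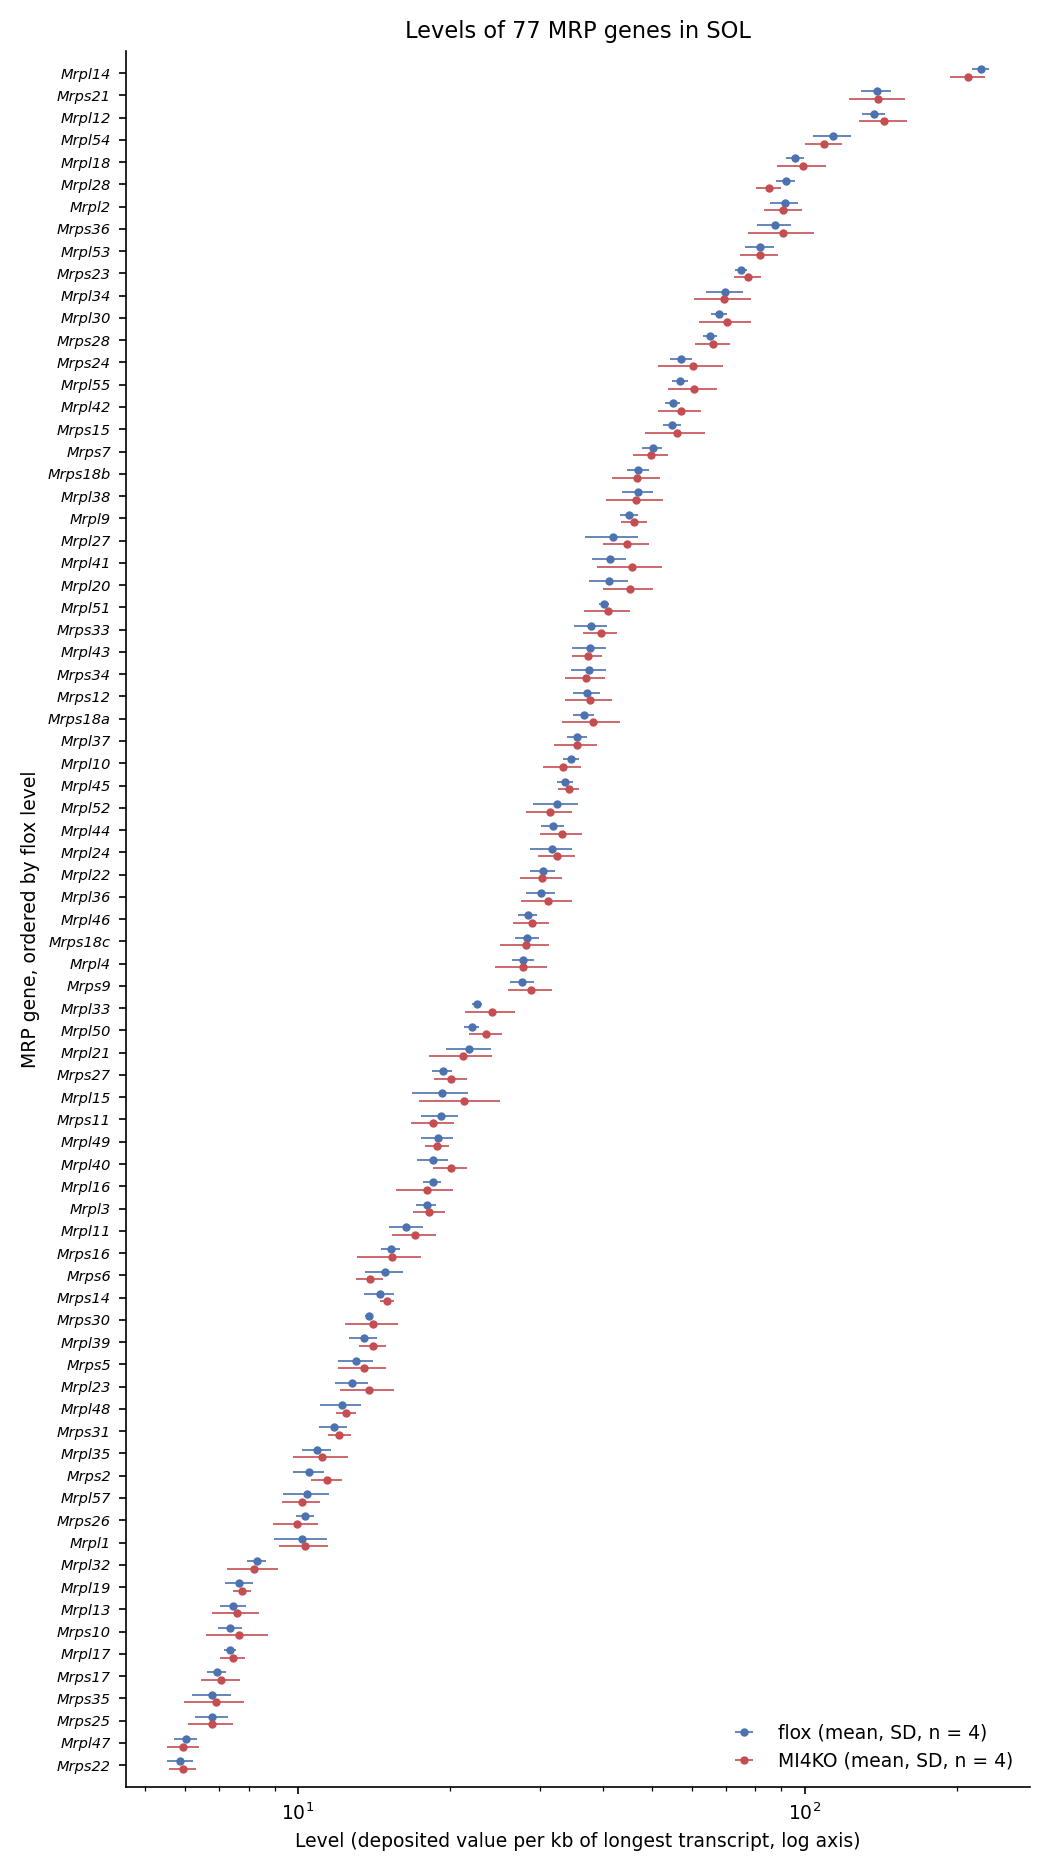
Level of each of the 77 MRP genes in SOL, as the deposited value per kb of the longest annotated transcript on a log axis, with flox mice in blue and MI4KO mice in red (points are means and bars SD, n = 4 each). The levels run from 5.87 for Mrps22 to 222.5 for Mrpl14 in flox, and the blue and red points of a gene lie side by side along the whole order.

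The MI4KO and flox mice were then compared to ask whether deletion of Irf4 in muscle fibers altered the transcripts of the mitochondrial ribosome. None of the 77 MRP genes was higher and none was lower in MI4KO SOL at an unadjusted p under 0.05 (limma on log2 of the value + 1). Over all genes tested 3.36% reached that threshold, 350 lower and 49 higher. None of the 77 passed the study's limits of a 1.5-fold change with p under 0.05 in this limma fit, in which 0.219% of all genes did. The study applied these limits to an edgeR test, so its number of genes cannot be set beside this share. After Benjamini-Hochberg adjustment the share of genes called by limma was 0 among the members and 0% over all 11865 genes. edgeR's quasi-likelihood test and DESeq2 on the recovered reads also called 0 of the 77 at an unadjusted p under 0.05, against 3.06% and 2.09% of all genes, and no gene after adjustment.

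The fold changes of the members were small and their intervals narrow. The log2 fold changes (MI4KO over flox) ran from -0.11 to 0.13, with a median of 0.02 over the members and of -0.01 over all genes tested, and 50 members lay above 0 and 27 below. Above 0 were 64.9% of the members, against 43.8% of all genes tested and 49.3% of the other genes in the members' range of values. The split of the members depended on the scaling and on single mice. It was 64 members above 0 after median-of-ratios scaling, 68 after scaling by the column total, 24 without MI4KO mouse 3 and 66 without MI4KO mouse 4. The shares of all genes above 0 in these other fits are not given here. The median absolute log2 fold change was 0.04 for the members, 0.07 for all genes and 0.05 for the 5165 other genes whose mean values lay in the members' range of 16.0 to 184.6. For all 77 members the 95% interval of the fold change stayed within 1.5-fold in either direction, as it did for 90.7% of all genes and 96.6% of the genes in the same range of values. For 74 members it stayed within 1.25-fold, against 51.5% of all genes and 77.7% of those in range. The exceptions were Mrpl15, Mrpl41 and Mrpl20, with upper bounds of 1.32-fold, 1.28-fold and 1.26-fold.

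**Figure D2:**
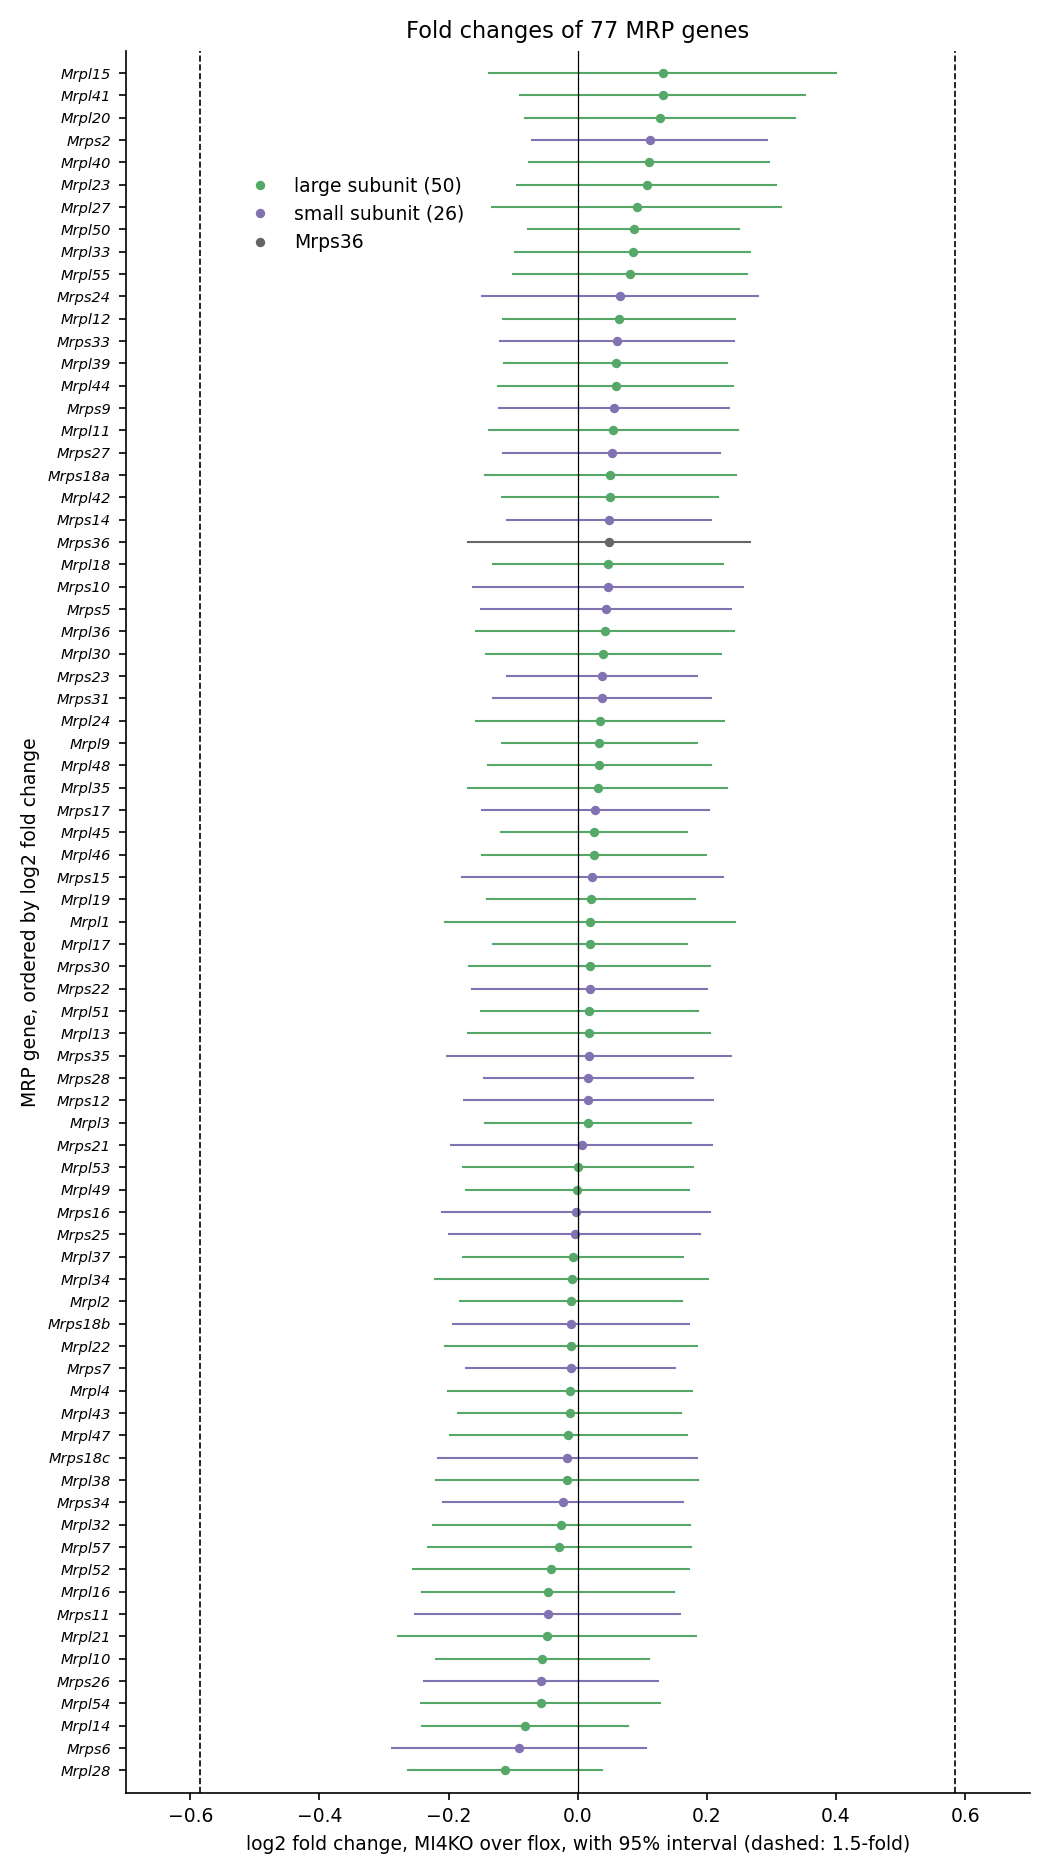
log2 fold change of each MRP gene (MI4KO over flox, points) with its 95% interval from limma (lines), coloured by ribosomal subunit, with dashed lines at a 1.5-fold change. The points lie between -0.11 and 0.13, every interval includes 0, and none reaches a dashed line.

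The medians were alike across the subunits and origins, in a description without a test. The median log2 fold change was 0.02 for the large subunit (32 of 50 above 0), 0.02 for the small subunit (17 of 26 above 0), 0.02 for proteins with a bacterial counterpart (30 of 46 above 0) and 0.02 for those without (19 of 30 above 0). In no member were all MI4KO values above or all below the flox values, a separation seen in 2.07% of all genes tested.

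The genes at the lower end of the fold changes were Mrpl28, Mrps6 and Mrpl14. Mrpl28, a large-subunit protein with a bacterial counterpart whose gene lies at chr17:26123500-26126613 (GRCm38, plus strand), was at 97.8, 104.7, 107.9 and 106.4 in flox mice 1 to 4 and at 97.6, 98.9, 100.6 and 88.2 in MI4KO mice 1 to 4. Flox mouse 1 lay among the MI4KO mice, so that the groups overlapped. The log2 fold change was -0.11 ± 0.07 (SE), with an exact two-sided permutation p of 0.0857, where the smallest value that 4 mice against 4 allow is 0.0286, and the gene did not pass adjustment over all genes. A fit without flox mouse 1 and MI4KO mouse 3 together was chosen after seeing the data. In it Mrpl28 was at -0.16 and passed the unadjusted threshold, the only member to do so. The share of all genes passing in that fit is not given here, so this call was not read as a result about Mrpl28.

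Mrps6 (chr16:92058270-92112227, plus strand), a small-subunit protein at its platform and the member with the lowest deposited values in flox mice, was at 15.2, 15.5, 18.3 and 17.1 in flox mice 1 to 4 and at 14.3, 15.3, 16.6 and 15.7 in MI4KO mice 1 to 4. MI4KO mouse 1 was below every flox mouse and the other 3 lay among them, and the log2 fold change was -0.09 ± 0.09 (SE; exact permutation p = 0.286). Mrpl14 (chr17:45686322-45698495, plus strand) was at 138.3, 146.4, 149.7 and 139.7 in flox mice 1 to 4 and at 140.4, 133.0, 147.8 and 122.3 in MI4KO mice 1 to 4. MI4KO mice 2 and 4 were below every flox mouse, MI4KO mice 1 and 3 lay among the flox mice, and the log2 fold change was -0.08 ± 0.07 (SE; exact permutation p = 0.314).

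The genes at the upper end were Mrpl15, Mrpl41 and Mrpl20, all of the large subunit. Mrpl15 (chr1:4773206-4785739, minus strand), whose bacterial counterpart helps to organise the RNA of the large subunit, was at 82.2, 87.9, 104.7 and 79.3 in flox mice 1 to 4 and at 90.02, 78.5, 120.0 and 102.3 in MI4KO mice 1 to 4. It also had the largest spread within a group of any member, with the lowest value of all 8 in MI4KO mouse 2 and the highest in MI4KO mouse 3, and its log2 fold change was 0.13 ± 0.12 (SE; exact permutation p = 0.457). Mrpl41 (chr2:24974117-24975098, minus strand), which has no bacterial counterpart, was at 29.0, 32.6, 31.5 and 35.0 in flox mice 1 to 4 and at 32.9, 33.9, 43.0 and 31.7 in MI4KO mice 1 to 4. Only MI4KO mouse 3 exceeded the flox range, and the log2 fold change was 0.13 ± 0.10 (SE; exact permutation p = 0.314).

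Mrpl20 (chr4:155802878-155809975, plus strand), an assembly protein of the large subunit in bacteria, was at 30.2, 34.3, 37.0 and 31.8 in flox mice 1 to 4 and at 40.2, 32.6, 40.2 and 33.2 in MI4KO mice 1 to 4. MI4KO mice 1 and 3 exceeded every flox mouse and the other 2 did not, and the log2 fold change was 0.13 ± 0.10 (SE; exact permutation p = 0.257). Mrpl15, Mrpl41 and Mrpl20 each had their highest value of the 8 in MI4KO mouse 3, and without the 2 mice that stood apart Mrpl15 and Mrpl41 were at log2 fold changes of -0.0045 and -0.0090 and Mrpl20 at 0.04.

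**Figure D3:**
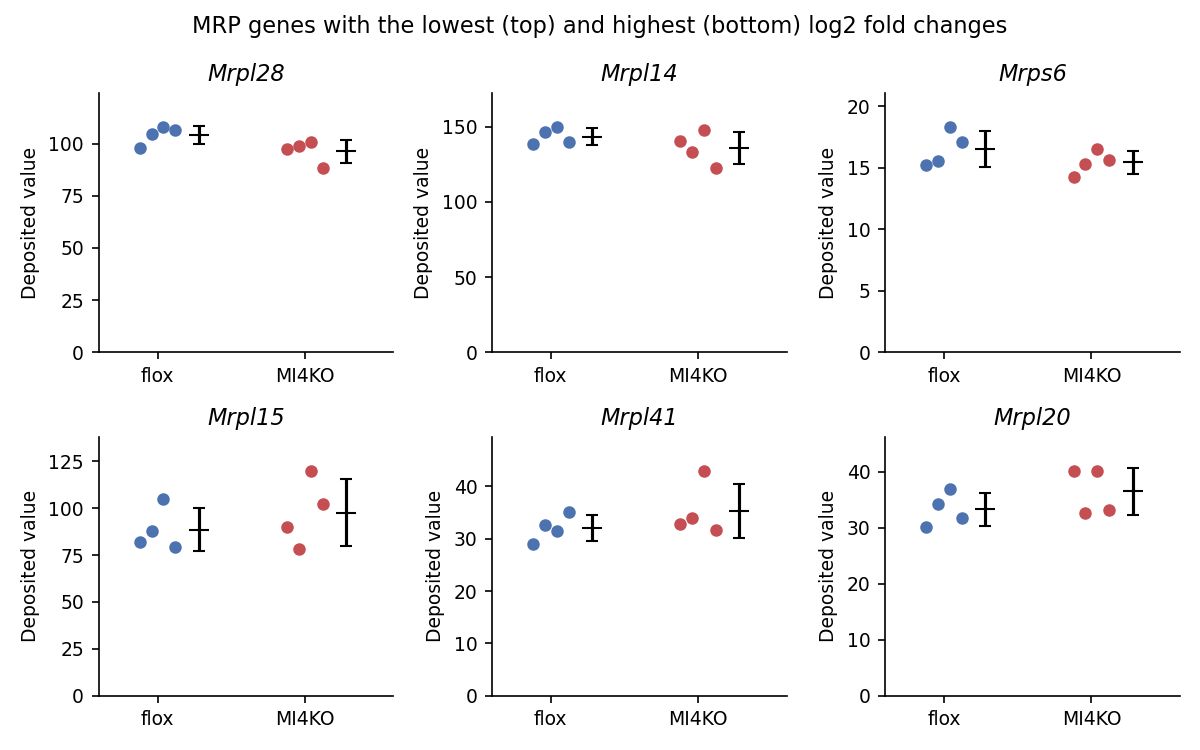
Deposited values of Mrpl28, Mrpl14 and Mrps6 (top row, lowest log2 fold changes) and of Mrpl15, Mrpl41 and Mrpl20 (bottom row, highest) in 4 flox mice (blue) and 4 MI4KO mice (red), with the mean and SD in black and axes that start at 0. The groups overlap in all 6 genes, and MI4KO mouse 3, the third red point, is the highest red point in each.

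The landmarks Mrpl12, Mrps12 and Mrpl45 were followed in every mouse. Mrpl12, of the stalk, was at 168.0, 178.8, 190.5 and 183.4 in flox mice 1 to 4 and at 192.3, 174.9, 216.4 and 172.2 in MI4KO mice 1 to 4, for a log2 fold change of 0.06 ± 0.08 (SE; exact permutation p = 0.514). Mrps12, of the decoding centre, was at 30.9, 34.5, 34.5 and 31.4 in flox and at 30.0, 34.7, 37.7 and 30.8 in MI4KO mice, which gave a log2 fold change of 0.02 ± 0.09 (SE; exact permutation p = 0.886). Mrpl45, which holds the large subunit at the inner membrane, was at 81.3, 79.4, 86.1 and 80.7 in flox and at 82.9, 80.3, 89.1 and 81.2 in MI4KO mice, with 0.03 ± 0.07 as the log2 fold change (SE; exact permutation p = 0.571). The groups overlapped in all 3 genes, and MI4KO mouse 3 was the highest of the 8 mice in each.

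The paralogs Mrps18a, Mrps18b and Mrps18c are related to 1 bacterial protein and occupy different places in the ribosome. Only Mrps18c takes the place of that protein, so Mrps18a and Mrps18b were counted above among the proteins without a bacterial counterpart. Mrps18a was at 76.7, 80.1, 85.2 and 84.1 in flox mice 1 to 4 and at 83.0, 79.97, 101.0 and 75.6 in MI4KO mice 1 to 4. Mrps18b was at 47.5, 52.4, 53.0 and 49.98 in flox and at 49.0, 47.2, 58.6 and 47.2 in MI4KO mice, and Mrps18c at 22.2, 23.2, 25.1 and 22.7 in flox and at 25.8, 21.7, 24.7 and 20.2 in MI4KO mice. Their log2 fold changes were 0.05 ± 0.09, -0.01 ± 0.08 and -0.02 ± 0.09 (SE), with exact permutation p-values of 0.800, 0.857 and 0.829, and all 3 genes overlapped between the groups. Per kb of the longest transcript, Mrps18b had the highest flox level of the 3, at 47.0 ± 2.31, followed by Mrps18a at 36.7 ± 1.76 and Mrps18c at 28.4 ± 1.53 per kb, with no overlap between neighbours, but with the principal transcript Mrps18a was highest at 92.2 per kb.

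The members differed between single mice, and many of them in the same direction. MI4KO mouse 3 held the highest value of the 8 mice for 54 of the 77 members, and MI4KO mouse 4 the lowest for 36 and flox mouse 1 for 18. Over all genes tested, MI4KO mouse 3 was highest for 30.9%, MI4KO mouse 4 lowest for 14.4% and flox mouse 1 lowest for 7.20%. In MI4KO mouse 3, 75 of the 77 members lay above their 8-mouse mean, in flox mouse 3 68, in flox mouse 1 8 and in MI4KO mouse 4 7. These counts moved with the scaling. MI4KO mouse 3 was highest for 37 members after median-of-ratios scaling and for 19 after scaling by the column total, where MI4KO mouse 1 was highest for 24 and MI4KO mouse 2 for 21. Under these 2 scalings MI4KO mouse 4 was lowest for 33 and 16 members and flox mouse 1 for 25 and 33. The summed deposited value of the members was 4140, 4359, 4579 and 4349 in flox mice 1 to 4 and 4468, 4245, 4949 and 4070 in MI4KO mice 1 to 4, so that the highest and the lowest of the 8 mice were both MI4KO mice on that scale. As a share of all reads on genes, the members took 0.411%, 0.452%, 0.427% and 0.426% in flox mice 1 to 4. In MI4KO mice 1 to 4 they took 0.459%, 0.463%, 0.454% and 0.421%. By this share MI4KO mice 1 to 3 were above every flox mouse and MI4KO mouse 4 lay among the flox mice.

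**Figure D4:**
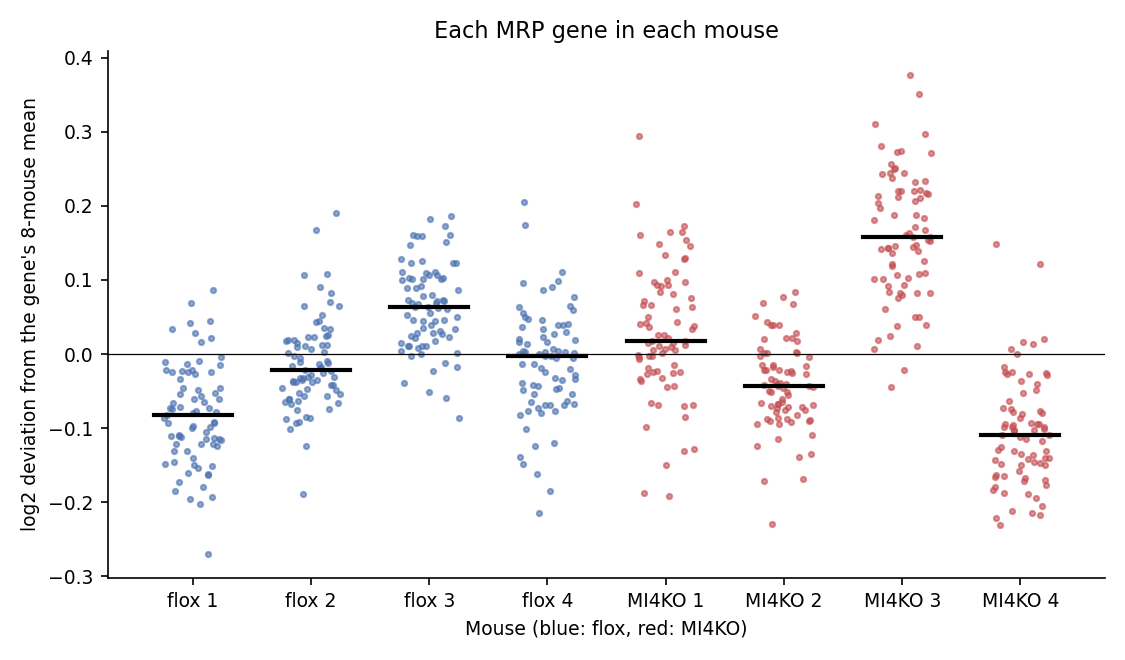
Deviation of each of the 77 MRP genes (points) from its own mean over the 8 mice on the log2 scale, for flox mice (blue) and MI4KO mice (red), with the median of each mouse as a black bar. The medians are -0.08, -0.02, 0.06 and -0.0032 in flox mice 1 to 4 and 0.02, -0.04, 0.16 and -0.11 in MI4KO mice 1 to 4.

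The median deviation of the members from their 8-mouse means, on the log2 scale, was -0.08, -0.02, 0.06 and -0.0032 in flox mice 1 to 4 and 0.02, -0.04, 0.16 and -0.11 in MI4KO mice 1 to 4. The large and the small subunit gave almost the same values, 0.16 and 0.15 in MI4KO mouse 3 and -0.13 and -0.10 in MI4KO mouse 4. The 36 complex I genes were at -0.10, 0.03, 0.06 and -0.01 in flox and at 0.00, -0.08, 0.21 and -0.12 in MI4KO mice, and the 40 genes of complexes II to V at -0.09, 0.01, 0.07 and -0.0025 and at 0.02, -0.08, 0.19 and -0.11. The genes of the mitochondrial ribosome and of the respiratory complexes had medians of the same sign in every mouse but flox mouse 2, which held for the cytosolic ribosome too.

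The cytosolic ribosome, a machine of similar size made of other proteins, had another order of the mice. Its 78 genes were at -0.04, 0.02, 0.08 and -0.01 in flox mice 1 to 4 and at 0.08, -0.03, 0.07 and -0.17 in MI4KO mice 1 to 4. They stood as high in MI4KO mouse 1 as in MI4KO mouse 3, whereas the mitochondrial members were at 0.02 and 0.16 in these 2 mice. The median over all genes tested was at 0.07 in MI4KO mouse 3 and at -0.06 in MI4KO mouse 2, so the scaling of the libraries entered these values.

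With the libraries scaled by median-of-ratios factors, which set the median of all genes near 0 in every mouse, the members were at 0.09 in MI4KO mouse 3, -0.09 in MI4KO mouse 4 and -0.09 in flox mouse 1. With scaling by the column total they were at 0.04, -0.06 and -0.09, and the highest mouse was then MI4KO mouse 2 at 0.08. The low position of flox mouse 1 and MI4KO mouse 4 was present under all 3 scalings, and the highest position of MI4KO mouse 3 under 2 of them. Rn45s, the precursor of cytosolic ribosomal RNA, which a poly(A) library should hold in small amounts, differed between mice from 17980 to 66561, and its part in these values was not tested.

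**Figure D5:**
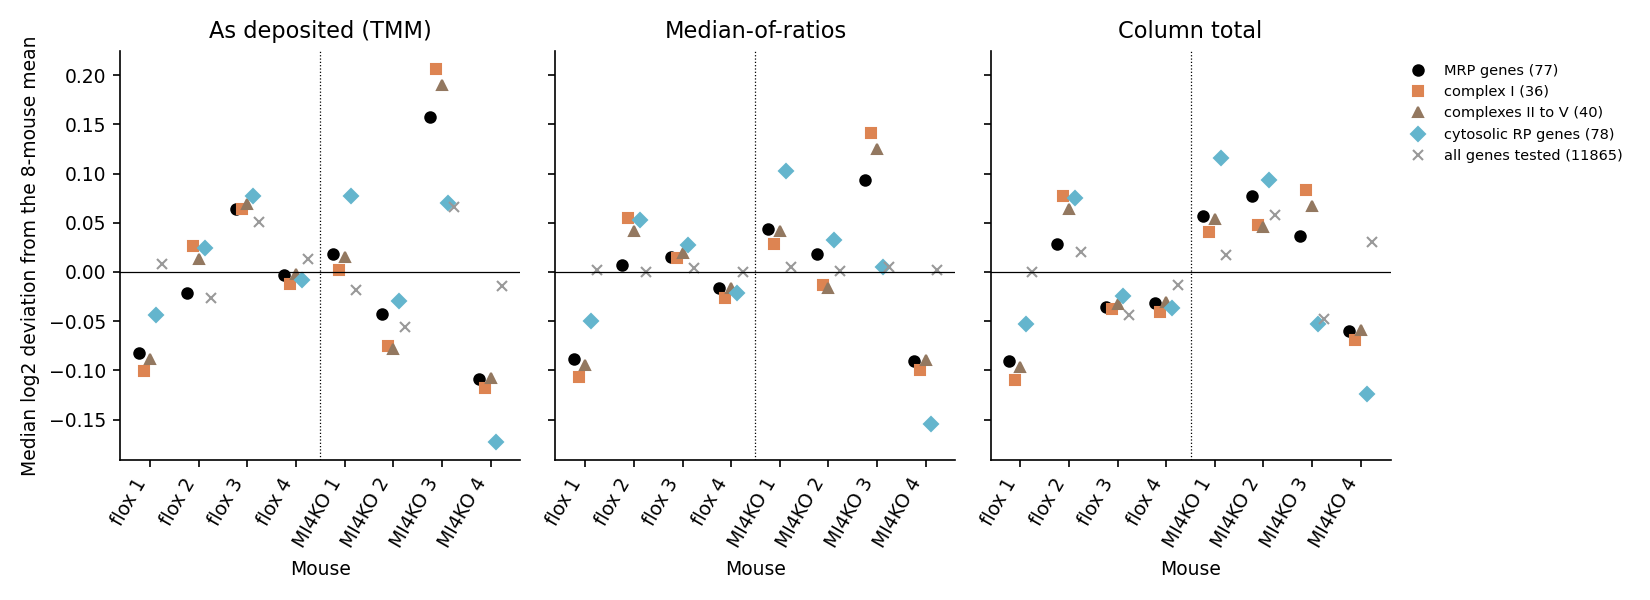
Median deviation from the 8-mouse mean on the log2 scale, in each mouse, for the MRP genes, complex I, complexes II to V, cytosolic ribosomal protein genes and all genes tested, with the values as deposited (left), after median-of-ratios scaling (centre) and after scaling by column total (right). In the left panel the MRP genes reach 0.16 in MI4KO mouse 3, close to complex I at 0.21, while the cytosolic genes are lowest in MI4KO mouse 4 at -0.17.

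The spread within the MI4KO group was smaller without MI4KO mouse 3. That mouse was highest of the 8 for 54 of the 77 members, so leaving it out favoured a smaller SD. No other mouse was left out of these SDs for comparison. On the deposited scale, the SD of log2 values within a group had a median over the members of 0.08 in flox and 0.14 in MI4KO mice. It was larger in MI4KO mice for 63 of the 77 members, against 65.6% of all genes tested. Without MI4KO mouse 3 the median SD of the MI4KO mice was 0.09, and the SD exceeded that of the flox mice for 41 members. Over all genes tested the median SD was 0.12 in flox, 0.16 in MI4KO and 0.13 without MI4KO mouse 3. Without that mouse the SD was larger than in flox mice for 6191 of the 11865 genes. Complex I showed the same, with 0.07 in flox, 0.15 in MI4KO and 0.08 without MI4KO mouse 3, whereas the cytosolic ribosomal genes stayed at 0.13 without it. The scaling entered the difference between the groups. The SD of the members' median deviation per mouse was 0.06 in flox and 0.11 in MI4KO mice as deposited. With median-of-ratios scaling it was 0.05 and 0.08, and with the column total 0.05 and 0.06. The 3 members with the largest spread within a group were Mrpl15, Mrps24 and Mrps36, with SDs of 0.26, 0.21 and 0.20 in MI4KO mice.

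Mrps24, a small-subunit protein near the entry of the messenger RNA, was at 53.3, 55.6, 58.5 and 59.7 in flox mice 1 to 4 and at 62.0, 57.9, 70.3 and 49.3 in MI4KO mice 1 to 4, which held both extremes. Mrps36, of the 2-oxoglutarate dehydrogenase complex, was at 54.7, 65.8, 63.2 and 61.1 in flox and at 62.7, 57.3, 77.2 and 57.3 in MI4KO mice. Both had their highest value in MI4KO mouse 3, and their log2 fold changes were 0.07 ± 0.10 and 0.05 ± 0.10 (SE), with exact permutation p-values of 0.600 and 0.800.

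The variation between mice exceeded what the number of reads alone would give. A member had 197 to 3255 reads in a mouse, with a median of 713, and the counting error alone had a median of 3.72% of the value, against a median coefficient of variation within groups of 8.25%. In no member was the variation between mice of a group below the counting error. The ratio of the 2 had a median of 2.24 and ran from 1.02 to 5.76. The coefficient of variation was taken from the deposited values only, so the scaling of the libraries entered it.

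Other genes of mitochondrial translation were examined in the same fit. Of 6 ribosomal proteins under other names, such as Dap3 and Ptcd3, none passed an unadjusted p under 0.05, and neither did any of 16 translation factors, with median log2 fold changes of 0.03 and 0.02. Of 23 genes for assembly of the ribosome and modification of its RNA, 1 was lower and none higher, and of 19 mitochondrial aminoacyl-tRNA synthetases also 1 was lower and none higher. None of 36 complex I genes and none of 40 genes of complexes II to V passed, and of 78 cytosolic ribosomal protein genes 1 was lower. These counts were read against the 3.36% of all genes.

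The lower assembly gene was Mettl17, which aids the maturation of the small subunit. It was at 7.23, 9.02, 6.53 and 8.31 in flox mice 1 to 4 and at 5.15, 5.62, 7.58 and 6.16 in MI4KO mice 1 to 4, for a log2 fold change of -0.30 ± 0.13 (SE), which did not pass adjustment over all genes by limma, with MI4KO mouse 3 inside the flox range. The lower synthetase was Lars2, which charges mitochondrial leucine tRNA. It was at 3543, 3734, 4265 and 4915 in flox mice 1 to 4 and at 2348, 1839, 4407 and 2691 in MI4KO mice 1 to 4, for a log2 fold change of -0.61 ± 0.21 (SE), likewise short of the adjusted threshold.

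Lars2 stood far above its class, at 1057 per kb in flox against a median of 7.20 per kb over the 19 synthetases, and its lowest values fell in MI4KO mice 1 and 2, which also had the lowest Rn45s, at 20321 and 17980 against 40897 to 66561 in the other mice. Whether reads of ribosomal RNA reach the Lars2 row was not tested. The lower cytosolic gene was Rpl26, at 231.2 ± 11.04 in flox and 204.4 ± 22.6 in MI4KO mice (SD, n = 4), and its log2 fold change was -0.18 ± 0.08 (SE), also short of the adjusted threshold.

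The members are scattered over 17 chromosomes of the GRCm38 build, with 10 on chromosome 11 and 8 on chromosome 17. These are 13.0% and 10.4% of the members, against 8.48% and 4.78% of the 11047 protein-coding genes tested. A protein-coding gene on the other strand begins within 1000 bases upstream of the start of 18 members, or 23.4%, against 10.2% of the protein-coding genes tested, and the median gap between the 2 starts was 82 bases. Mrps12, at chr7:28739641-28741820 on the minus strand, shares such a gap with Sars2, the mitochondrial serine tRNA synthetase, whose start lies 172 bases away. Sars2 was at 16.7, 15.7, 22.2 and 20.8 in flox mice 1 to 4 and at 15.1, 17.3, 19.7 and 17.9 in MI4KO mice 1 to 4, and Mrps12 and Sars2 did not have the same order of mice.

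The promoters of the members were searched for short motifs of factors known to act on nuclear genes of mitochondrial proteins. RefSeq promoters (GRCm38.p6, 250 bases before the start and 50 after it) were at hand for 68 of the 77 members, and each motif was sought on both strands. The motif GCGCNTGCG of NRF1, a factor named for nuclear genes of respiration, was in the promoters of 18 members (26.5%), against 15.6% of the 8955 tested genes with a promoter and 7.12% of all 27025 genes with one. The motif CCGGAAG of ETS factors was in 25 members (36.8%), against 20.1% and 9.93%, and the motif AAGATGGCG of YY1 in 8 members (11.8%), against 3.76% and 1.64%. At least 1 of the 3 was in 42 members (61.8%), against 34.4% and 16.6%.

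Motifs of general promoter factors had lower shares in the members than in the tested genes, but for GGGCGG, bound by SP factors, not than in all genes. It was in 34 of the 68 members, against 69.7% of the tested genes and 38.2% of all genes. TATAAA was in 7.35% of the members, against 9.0% and 15.7%, and CCAAT in 39.7%, against 42.7% and 41.1%. GAAANNGAA, part of the response element to which IRF factors bind, was in 7 members (10.3%) against 8.69% of the tested genes and 9.76% of all genes. A match is a run of letters and not a shown binding site, and the absence of one says nothing of the factor.

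Parts of 6 promoters are shown, upstream of the start and outside every annotated exon, because they belong to members described above and hold different combinations of these letters. Sequences are RefSeq GRCm38.p6, written 5′ to 3′ on the strand of the gene, with matches to the NRF1 or ETS motif in capitals.
Mrpl12, chr11:120484387-120484612, plus strand: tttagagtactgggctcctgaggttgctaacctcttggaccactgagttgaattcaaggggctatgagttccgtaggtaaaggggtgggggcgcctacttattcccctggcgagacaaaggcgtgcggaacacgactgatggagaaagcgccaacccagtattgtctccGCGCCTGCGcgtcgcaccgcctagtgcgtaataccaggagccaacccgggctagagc
Mrpl45, chr11:97315466-97315715, plus strand: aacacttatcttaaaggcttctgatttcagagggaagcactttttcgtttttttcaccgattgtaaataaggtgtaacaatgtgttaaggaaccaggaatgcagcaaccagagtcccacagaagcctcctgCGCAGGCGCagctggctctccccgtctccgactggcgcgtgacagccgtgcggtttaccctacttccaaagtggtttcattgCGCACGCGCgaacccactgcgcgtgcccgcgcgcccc
Mrps18a, chr17:46110754-46110985, plus strand: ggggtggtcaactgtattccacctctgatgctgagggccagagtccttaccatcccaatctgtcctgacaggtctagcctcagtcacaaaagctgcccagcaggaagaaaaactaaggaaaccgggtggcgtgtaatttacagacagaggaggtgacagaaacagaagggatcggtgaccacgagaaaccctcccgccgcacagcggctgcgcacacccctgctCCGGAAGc
Mrps22, chr9:98601680-98601929, minus strand: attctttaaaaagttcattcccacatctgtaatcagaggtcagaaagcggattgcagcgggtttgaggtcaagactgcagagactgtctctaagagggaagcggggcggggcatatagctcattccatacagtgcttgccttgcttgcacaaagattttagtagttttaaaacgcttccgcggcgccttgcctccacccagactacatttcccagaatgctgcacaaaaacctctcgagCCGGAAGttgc
Mrpl28, chr17:26123255-26123499, plus strand: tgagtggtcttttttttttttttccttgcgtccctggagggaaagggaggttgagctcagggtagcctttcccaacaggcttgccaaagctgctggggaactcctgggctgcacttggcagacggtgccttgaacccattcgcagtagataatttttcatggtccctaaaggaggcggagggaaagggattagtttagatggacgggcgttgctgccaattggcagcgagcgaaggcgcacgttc
Mrps12, chr7:28741822-28741991, minus strand: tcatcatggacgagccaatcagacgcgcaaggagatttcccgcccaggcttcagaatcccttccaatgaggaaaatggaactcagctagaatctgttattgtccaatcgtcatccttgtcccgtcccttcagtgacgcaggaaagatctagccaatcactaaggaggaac

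The stretch shown for Mrpl12 holds 1 NRF1 match, and that for Mrpl45 holds 2. The stretches of Mrps18a and Mrps22 hold 1 ETS match each, although the levels of these genes differed, at 36.7 and 5.87 per kb. The stretch of Mrpl28 and that between Mrps12 and Sars2 hold none of the 3 motifs. Matches in the rest of the promoters searched above, which reach 50 bases past the start, are not given here for single genes. Mrpl28 was the member with the lowest log2 fold change, -0.11. The highest value of Mrpl28 was in flox mouse 3, and that of the other 5 genes, Mrps12 among them, in MI4KO mouse 3. Whether the motifs have a part in the levels, the fold changes or the shifts between mice was not tested.

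Reads on a member can be shared with genes that overlap it. The exons of 32 members overlap those of another annotated gene, and in 18 members over 10% of the exon bases are shared, most often with a gene on the opposite strand. The kit marked the strand, but whether the counting used it is not given in the sources used here. Among the members named above, the shared part was 69.8% of the exon bases of Mrps25 (Nr2c2, opposite strand), 30.5% of Mrps18b, 24.2% of Mrpl47, 23.2% of Mrps18c, 19.9% of Mrps6 (Slc5a3, same strand) and 10.1% to 15.4% of Mrps24, Mrpl12, Mrpl14 and Mrpl18, so their values are less certain than those of the others.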

How the data were processed

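The members and gene lists were chosen with earlier results of these data known. The authors prepared Kapa Stranded mRNA libraries, and according to their notes used bcl2fastq 2.17, Bowtie2 2.1.0, RSEM 1.2.15 and mm10. The deposited signal is a CPM value per gene and mouse after TMM scaling. The fold changes, p-values and FDR that the authors deposited beside it were not used. Division by the step of each mouse gave whole numbers for 100% of the non-zero values under an upper limit on reads (tolerance 0.1). Values above that limit were not checked. In the deposited unit 3 reads correspond to 0.181 to 0.225, for counting error only. limma 3.58.1 (R 4.3.3) with a mean-variance trend was fitted to log2(value + 1) without covariates. edgeR 4.0.16 and DESeq2 1.42.0 used the recovered read counts. Exact permutation tests were two-sided. On simulated data for MI4KO against flox (11865 genes), calls were made at a Benjamini-Hochberg adjusted p under 0.05, not at the unadjusted threshold used for the members. There limma called 97 of 100 4-fold and 92 of 100 2-fold changes and 8 of 11665 unchanged genes. Genes were simulated independently of each other, without shifts shared within a mouse, and changes below 2-fold were not simulated. Transcript lengths and positions are from GENCODE M21 (GRCm38). Named members are those at the ends of the orders of level, fold change and spread, the paralogs of Mrps18, and Mrpl12, Mrps12 and Mrpl45. Each library is 1 mouse. The alternatives were another pseudocount (0.25), no filter, 2 scalings, limma without the trend, both count tests, mouse-number range as a covariate and each mouse left out, and, chosen after seeing the data, principal transcripts and removal of 2 mice.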

Additional observations from a re-analysis of the deposited data

Results flagged for a closer look

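Mrps18b was at 58.6 in MI4KO mouse 3, above the other MI4KO mice, of which the next was at 49.0. On the scale of log2(value + 1) the gap takes 0.831 of the range of the group, just past Dixon's 95% critical value for 4 samples. It was the only one of 48 such groups examined among the named members and their summed and median levels, and over all 77 members 8 of 154 groups passed, where chance flags about 1 in 20.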

How the results depend on the processing

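No paired analysis was run, because the sample titles give each mouse a group and its own number but no litter or pair. The count of MRP genes called at an unadjusted p under 0.05 was 0 in each direction in all fits but 2. Scaling by the column total called 1 higher (Mrpl23, 0.15) and left 4 members with all MI4KO above all flox values (Mrpl23, Mrpl40, Mrps2 and Mrps31, named after their values were seen), and the fit without flox mouse 1 and MI4KO mouse 3 together called 1 lower (Mrpl28, -0.16). Under the column total the median deviation over all genes tested averaged -0.0094 in flox and 0.014 in MI4KO mice. The shares of all genes in these 2 fits are not given here, so the counts were not read as a result about the members. The median log2 fold change of the members lay between -0.03 (24 of 77 above 0, without MI4KO mouse 3) and 0.06 (66 above 0, without MI4KO mouse 4) when each mouse was left out, at -0.05 without both mice (11 above 0; all genes -0.04), and at 0.04 with median-of-ratios scaling and 0.06 with the column total, with 64 and 68 members above 0, so the split of signs rests on the scaling and on MI4KO mouse 3. The cause was not tested.

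Of 22 named members, 17 changed sign in some fit, none past the threshold. Without both mice the log2 fold change was -0.036 for Mrpl12, -0.0045 for Mrpl15, -0.042 for Mrpl18, -0.0090 for Mrpl41, -0.0096 for Mrpl45, -0.072 for Mrps12, -0.0021 for Mrps17, -0.064 for Mrps18a, -0.10 for Mrps21, -0.043 for Mrps24, -0.12 for Mrps35 and -0.099 for Mrps36. With median-of-ratios scaling it was 0.0049 for Mrpl47, 0.0097 for Mrps18b, 0.0034 for Mrps18c and 0.015 for Mrps25, and with the column total 0.028 for Mrpl47, 0.033 for Mrps18b, 0.026 for Mrps18c and 0.038 for Mrps25. edgeR gave 0.0011 for Mrpl47, 0.0065 for Mrps18b, 0.0016 for Mrps18c and 0.012 for Mrps25, DESeq2 0.0032 for Mrpl47, 0.0096 for Mrps18b, 0.0042 for Mrps18c and 0.015 for Mrps25, and the covariate for the mouse numbers 0.021 for Mrps18b and 0.023 for Mrps25. With each mouse left out in turn it ran from -0.0030 to 0.11 for Mrpl12, -0.017 to 0.097 for Mrpl18, -0.0065 to 0.050 for Mrpl45, -0.042 to 0.036 for Mrpl47, -0.044 to 0.062 for Mrps12, -0.029 to 0.065 for Mrps17, -0.035 to 0.10 for Mrps18a, -0.083 to 0.020 for Mrps18b, -0.069 to 0.042 for Mrps18c, -0.066 to 0.072 for Mrps21, -0.013 to 0.051 for Mrps22, -0.014 to 0.15 for Mrps24, -0.054 to 0.052 for Mrps25, -0.070 to 0.069 for Mrps35 and -0.048 to 0.094 for Mrps36. The length of the union of exons moved the level per kb of all 22 named members by more than the SD over flox mice, and the principal transcript that of 6.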
